A study of Mus musculus with 6 samples.

Results

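The genes described here are 34 genes that are typical of fibroblasts and of fibroadipogenic progenitors (FAPs) in skeletal muscle. They were taken from a written list that left the collagens out. All 34 were found among the 31053 genes of the deposited count table, and 30 passed the expression minimum of the test (a mean of DESeq2-normalized counts above 10). The other 4, Dpp4, Pi16, Osr1 and Twist2, are given by their counts.

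FAPs are the mesenchymal cells that lie between the fibers of a muscle. They express the PDGF receptor Pdgfra, deposit the fibrillar and microfibrillar matrix and secrete factors that act on muscle stem cells (MuSCs) during repair, and they can turn into adipocytes or matrix-producing fibroblasts. Most of their matrix genes are not private to them: decorin, fibulins, fibronectin, matrix Gla protein and gelsolin are also made by tenocytes, mural cells, endoneurial cells or, at lower levels, MuSCs.

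RNA of MuSCs, sorted by FACS for the nuclear GFP of the Pax7nGFP allele from resting hindlimb muscles of mice 3 to 4 months old, was sequenced with a library for each mouse. The control mice (WT, n = 3: c124, c129 and c130) were Pax7nGFP/+;Pax7+/+;Dio2Fl/Fl and the cD2KO mice (n = 3: fl125, fl126 and fl128) were Pax7nGFP/+;Pax7-CreERT2/+;Dio2Fl/Fl. Every mouse carried GFP and floxed Dio2 (the type 2 deiodinase, which makes the active thyroid hormone T3) and was labelled with Tamoxifene treatment, and the Cre allele therefore separates the groups too. The Cre is driven from Pax7, a gene of MuSCs, and the comparison asks what differs between sorted cells with and without it.

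Totals ran from 2184073 to 3897787 counts, and 3 counts equalled 0.768 to 1.36 CPM (counts relative to library size, with TMM scaling). Dio2 was too low to be tested, with 21, 5 and 10 counts in c124, c129 and c130 and 15, 5 and 1 counts in fl125, fl126 and fl128. The library labelled fl125 therefore did not show less Dio2 than the WT mice. It also stood apart on the first principal component (45.1% of the variance), at 72.6 against 7.52 and 4.87 for fl126 and fl128, with c129 at the other end at -50.7. Where leaving out fl125 moved the log2 fold change of a tested gene of the list by more than 1.5 times, the value without it is given. For genes of the other lists named further below, values without fl125 are not given. All 6 libraries had the Y-linked Ddx3y, and none had more than 1 count of Xist. Another Y-linked gene, Eif2s3y, was lower in all cD2KO mice than in any WT mouse. Its log2 fold change was -1.56 (adjusted p = 0.0885 in edgeR's test), whereas the Y-linked Ddx3y, Kdm5d and Uty were at 0.00, 0.04 and -0.08. Whether the mice shared a cage, litter or sort day is not given in the sources used here, and p-values measure the spread among these mice.

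The FAP label was checked against the gene that defines these cells. Pdgfra had 19, 25 and 26 counts in the WT mice and 2, 13 and 18 counts in fl125, fl126 and fl128, which gave 4.86, 9.21 and 9.0 CPM against 0.91, 4.45 and 5.66 CPM. Per kilobase of exon, 5 markers of the cells themselves had the lowest levels of the 34 genes, namely Osr1 (1.58 CPM per kb), Twist2 (1.07), Pdgfra (0.567), Pi16 (0.383) and Dpp4 (0.323). Pax7 stood at 71.3 CPM per kb in the same libraries. The top of that order held secreted and matrix proteins, with Apod at 584, Dcn at 371, Mgp at 275 and Gsn at 261 CPM per kb. The other 3 cell markers were higher, with Ly6a at 24.5 CPM per kb, above several matrix genes. Fap (4.77) and Islr (3.47) lay above Prg4 (2.72) but below the other matrix genes. Since Pdgfra was low and matrix genes that other cells share were abundant, the genes are called the listed genes below, without naming their cells. In bulk RNA, fewer cells of a type and less RNA per cell cannot be told apart. The levels per kb assume that reads cover whole transcripts, which the sources used here do not state.

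At an unadjusted p under 0.05, 4 of the 30 genes tested were lower in the cD2KO mice (Smoc2, C3, Gsn and Lum) and 1 was higher (Mfap5). These are 13.3% and 3.33% of the 30 genes, where 6.62% of all 11633 genes tested were lower and 5.34% higher, or 12.0% in either direction. None of the 30 had an adjusted p under 0.05 or 0.1 in edgeR's quasi-likelihood test, where the smallest was 0.105 and 0.00860% and 0.774% of all genes were under these values. DESeq2 gave 1 listed gene under 0.05 (Smoc2) and 2 under 0.1 (Smoc2 and C3), where it gave 2.37% and 3.49% of all genes. The test of limma voom gave 0 at both, with 0.00860% and 0.189% of all genes. Log2 fold changes (cD2KO over WT) ran from -1.53 to 0.57 with a median of -0.50, beside -0.02 over all genes tested. They were negative in 22 of 30 genes (73.3%), beside 51.9% of all genes. The plot of log2 fold changes shows this as a lean to the left, with standard error bars that reach 0 in some genes, such as Fap, Islr and Fn1. The genes come from the same 6 mice and are not replicates of each other.

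**Figure D1:**
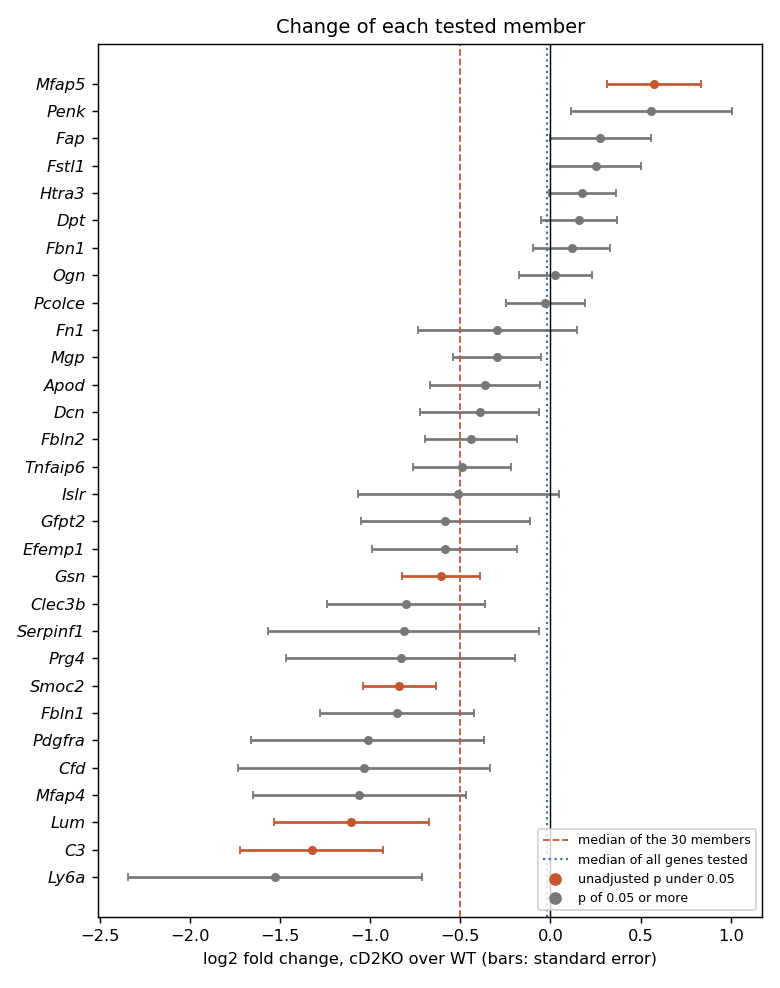
Log2 fold change of each of the 30 tested genes (x axis, cD2KO over WT) with its standard error as a bar, ordered by size. The 5 genes with an unadjusted p under 0.05 are red, and the dashed line at the members' median of -0.50 lies to the left of the dotted line at the median of all genes, -0.02.

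Of the 8 markers of the cells themselves, 4 were tested and none passed the threshold. Ly6a (Sca-1, a surface protein used to sort FAPs and also carried by endothelial and immune cells) was the most abundant. It was at 9.98, 61.5 and 60.9 CPM in c124, c129 and c130 and at 10.4, 7.19 and 27.3 CPM in fl125, fl126 and fl128. The WT mouse c124 lay within the range of the cD2KO mice, so the groups overlapped, and the difference of -1.53 ± 0.81 (SE) on the log2 scale had an adjusted p of 0.535 (edgeR). Pdgfra differed by -1.01 ± 0.65, with an adjusted p of 0.581, and by -0.55 without fl125. Fap, a surface serine protease of activated fibroblasts, averaged 24.4 ± 5.11 CPM in the WT and 29.6 ± 4.03 in the cD2KO mice (SD, n = 3 mice each). Islr, which encodes the surface protein meflin, was at 10.9 ± 7.23 and 7.75 ± 1.57 CPM, and it shares exon sequence with Islr2 on the same strand. The untested Dpp4 (a surface peptidase) and Pi16 (a peptidase inhibitor), both markers of the least differentiated fibroblasts, had 38 and 44 counts in the 6 mice together and 0 counts in fl125, which allows up to 1.36 CPM there (3 counts). Osr1 and Twist2, transcription factors of connective tissue, had 58 and 64 counts. In a fit with no minimum, the log2 fold changes of these 4 lay between -0.25 and 0.42, with p from 0.718 to 0.955 in edgeR's test.

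The small leucine-rich proteoglycans bind collagen fibrils and set their width and spacing. Lum (lumican; chromosome 10, 97565128 to 97572703, plus strand, mm10) was at 28.4, 40.5 and 40.2 CPM in c124, c129 and c130 and at 4.99, 19.8 and 24.8 CPM in fl125, fl126 and fl128. All cD2KO mice lay below all WT mice, with fl125 far below the other two. The means were 36.4 ± 6.88 and 16.6 ± 10.3 CPM (SD, n = 3 mice each). Lum was lower by the test, with a log2 fold change of -1.10 ± 0.43 (SE), an unadjusted p of 0.0241 and an adjusted p of 0.343 (edgeR). It kept a p under 0.05 in 4 of the 6 fits that leave out a mouse, and lost it without c129 or c130. Without fl125 it was at -0.66 and still lower (adjusted p = 0.300 in edgeR's test).

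Dcn (decorin) lies on the same strand, 46.984 kb before Lum, with no other gene of the table between them. It was at 1911, 3100.5 and 2365 CPM in the WT mice and at 997, 1837 and 2794 CPM in the cD2KO mice. The groups overlapped, since fl128 lay above c124 and c130. The log2 fold change of -0.39 ± 0.33 (adjusted p = 0.710 in edgeR's test) became -0.05 without fl125 and -0.80 without fl128. Ogn (osteoglycin) averaged 186 ± 11.7 CPM in the WT and 189 ± 39.7 in the cD2KO mice, with a log2 fold change of 0.03 ± 0.20, or 0.19 without fl125.

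The microfibril and elastic fiber genes held the only listed gene that was higher. Mfap5 (MAGP-2, a glycoprotein that binds fibrillin microfibrils; chromosome 6, 122505845 to 122529290, plus strand) was at 138, 112 and 114 CPM in c124, c129 and c130 and at 106, 203 and 234 CPM in fl125, fl126 and fl128. The groups overlapped: fl126 and fl128 lay above every WT mouse and fl125 below every one. The means were 121 ± 14.7 and 181 ± 66.8 CPM (SD, n = 3 mice each), and the log2 fold change was 0.57 ± 0.26 (unadjusted p = 0.0454, adjusted p = 0.404 in edgeR's test). Without fl125 it was 0.88 with an adjusted p of 0.0299, whereas the unadjusted p was above 0.05 without c129 (0.55), c130 (0.53), fl126 (0.49) or fl128 (0.35).

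Fbln2 (fibulin 2, which joins basement membranes and elastic fibers) was at 32.3, 38.7 and 45.3 CPM in the WT mice and at 28.6, 31.1 and 26.1 CPM in the cD2KO mice. The groups did not overlap, but the gap between c124 and fl126 was small, and the log2 fold change of -0.44 ± 0.26 had an adjusted p of 0.533 (edgeR). Fbln1 (fibulin 1) had a log2 fold change of -0.85 ± 0.43 and Mfap4, a fibrinogen-related protein of microfibrils, one of -1.06 ± 0.59, with adjusted p of 0.470 and 0.525. In both, fl125 held the lowest value, at 5.89 and 3.17 CPM, and without it the log2 fold changes were -0.41 and -0.60. Efemp1 (fibulin 3) was at 13.4 ± 3.92 and 8.86 ± 1.40 CPM. Fbn1 (fibrillin 1), the backbone of microfibrils, was at 76.8 ± 10.9 and 83.7 ± 15.1 CPM with a log2 fold change of 0.12 ± 0.21. The 6 genes of these fibers ran from -1.06 to 0.57, with 4 of them negative.

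Among the other matrix and matricellular genes, Smoc2 had the smallest p of the list. Smoc2 encodes a secreted calcium-binding protein of the SPARC family (chromosome 17, 14279506 to 14404790, plus strand). It was at 121, 149 and 164 CPM in c124, c129 and c130 and at 69.8, 81.8 and 91.2 CPM in fl125, fl126 and fl128. All cD2KO mice lay below all WT mice, and the spread within each group was smaller than the gap between the means, 145 ± 21.7 and 80.9 ± 10.7 CPM (SD, n = 3 mice each). The log2 fold change was -0.84 ± 0.20 (SE) with an unadjusted p of 0.00105 and an adjusted p of 0.105 (edgeR). It stayed between -0.95 and -0.70 with any 1 mouse left out, with a p under 0.05 in 6 of 6 of these fits. Its adjusted p ranged from 0.0220 to 0.462 over the alternatives.

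Tnfaip6 (TSG-6, which loads protein onto hyaluronan in inflamed tissue) was at 39.9, 26.9 and 36.0 CPM in the WT mice and at 25.8, 26.01 and 21.7 CPM in the cD2KO mice. The groups did not overlap, with c129 just above fl126, and the log2 fold change of -0.49 ± 0.27 had an adjusted p of 0.511 (edgeR). Mgp (matrix Gla protein, an inhibitor of calcification) was the most abundant of these genes. It was at 321, 367 and 389 CPM in the WT mice and at 183, 323 and 372 CPM in the cD2KO mice, where fl125 was low and fl126 and fl128 lay within the WT range. Its log2 fold change was -0.30 ± 0.25 (adjusted p = 0.703 in edgeR's test), and -0.01 without fl125. Fn1 (fibronectin) and Prg4 (lubricin) had log2 fold changes of -0.29 ± 0.44 and -0.83 ± 0.64, which were 0.10 and -0.37 without fl125. Dpt (dermatopontin) and Fstl1 (follistatin-like 1, a secreted glycoprotein) had values of 0.16 ± 0.21 and 0.25 ± 0.25, and Dpt was at 0.28 without fl125.

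The enzymes, enhancers and inhibitors of matrix processing held no gene past the threshold. Htra3, a secreted serine protease, was at 238, 222 and 269.7 CPM in the WT mice and at 287, 279 and 262 CPM in the cD2KO mice. Its highest value was 1.29 times its lowest, the smallest ratio of the 30 genes, and its log2 fold change was 0.18 ± 0.19 (adjusted p = 0.769 in edgeR's test). Pcolce, which enhances the trimming of procollagen, differed by -0.03 ± 0.22, and by 0.20 without fl125, and shares exon sequence with Fbxo24 on the same strand. Serpinf1 (PEDF, a secreted serpin without protease inhibition) ranged from 20.4 CPM in fl125 to 172 CPM in c129, with a log2 fold change of -0.81 ± 0.75, or -0.36 without fl125. Clec3b (tetranectin, a plasminogen-binding protein) differed by -0.80 ± 0.44 with an adjusted p of 0.515.

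Of the 5 complement and other secreted proteins, 2 were lower. C3, the central component of complement, lies on the minus strand of chromosome 17 from 57203970 to 57228136. It was at 32.8, 38.7 and 20.1 CPM in c124, c129 and c130 and at 9.52, 7.19 and 19.5 CPM in fl125, fl126 and fl128. The groups did not overlap, but only a narrow gap separated c130 from fl128, and the means were 30.5 ± 9.50 and 12.1 ± 6.53 CPM (SD, n = 3 mice each). The log2 fold change was -1.32 ± 0.40 (unadjusted p = 0.00487, adjusted p = 0.173 in edgeR's test). It ran from -1.88 to -1.05 with 1 mouse left out, and p stayed under 0.05 in 6 of 6 fits. Its adjusted p ranged from 0.0161 to 0.608 over the alternatives. Macrophages also express C3.

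Gsn (gelsolin, an actin-severing protein with a secreted form) lies on the plus strand of chromosome 2 from 35256380 to 35307892. It was at 808, 1205 and 965 CPM in the WT mice and at 546, 653 and 760.4 CPM in the cD2KO mice, with c124 and fl128 as neighbours across a gap. The means were 993 ± 200 and 653 ± 107 CPM (SD, n = 3 mice each), and the log2 fold change was -0.61 ± 0.22 (unadjusted p = 0.0147, adjusted p = 0.273 in edgeR's test). The p was above 0.05 without c129 (log2 fold change -0.42), fl125 (-0.45) or fl126 (-0.61).

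C3 and Gsn are the called genes whose promoters could be shown, and their sequences let the 2 genes be compared at their starts. Of the 34 genes, 21 had an entry in the RefSeq promoter table (GRCm38.p6, 250 bases before to 50 after a transcript start), with 24 promoters in all. Capitals mark matches, on either strand, to any of 5 motifs: TATAAA for the TATA-binding protein, CCAAT for NF-Y, TGANTCA for AP-1, GGAATG for TEAD factors and AGGTCA, a nuclear receptor half-site. No marked match overlapped another. The C3 promoter is chr17:57228087-57228386 on the minus strand, and the 3 Gsn starts are chr2:35256109-35256408, chr2:35266494-35266793 and chr2:35282130-35282429 on the plus strand, each written 5′ to 3′.
C3: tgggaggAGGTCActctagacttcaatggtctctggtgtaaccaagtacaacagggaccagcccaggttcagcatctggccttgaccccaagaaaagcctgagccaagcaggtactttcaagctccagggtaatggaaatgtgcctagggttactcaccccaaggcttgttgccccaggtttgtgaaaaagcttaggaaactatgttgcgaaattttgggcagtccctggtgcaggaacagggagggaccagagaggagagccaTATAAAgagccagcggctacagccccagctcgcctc
Gsn start 1: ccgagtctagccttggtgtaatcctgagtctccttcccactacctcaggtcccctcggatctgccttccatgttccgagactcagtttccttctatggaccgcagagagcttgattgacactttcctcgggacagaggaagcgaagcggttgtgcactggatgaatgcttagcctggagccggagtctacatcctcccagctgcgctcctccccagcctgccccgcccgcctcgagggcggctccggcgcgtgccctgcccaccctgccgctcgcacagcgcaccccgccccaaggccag
Gsn start 2: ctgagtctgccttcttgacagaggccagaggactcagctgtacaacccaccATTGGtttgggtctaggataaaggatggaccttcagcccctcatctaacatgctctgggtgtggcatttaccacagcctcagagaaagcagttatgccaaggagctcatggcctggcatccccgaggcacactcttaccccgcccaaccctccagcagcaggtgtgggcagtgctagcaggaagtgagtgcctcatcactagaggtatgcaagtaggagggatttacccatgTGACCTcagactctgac
Gsn start 3: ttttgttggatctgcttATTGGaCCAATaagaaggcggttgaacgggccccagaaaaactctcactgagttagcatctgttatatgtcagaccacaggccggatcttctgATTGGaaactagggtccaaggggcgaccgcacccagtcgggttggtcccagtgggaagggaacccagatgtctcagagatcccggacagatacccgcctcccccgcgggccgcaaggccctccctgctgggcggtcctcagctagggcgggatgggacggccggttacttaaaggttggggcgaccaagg
The C3 window held an AGGTCA near its far end and a TATAAA after the annotated start, as the capitals show. The window of Gsn start 1 had no match, that of start 2 a CCAAT and an AGGTCA in reverse, and that of start 3 had 3 CCAAT matches. These motifs are common: TATAAA was in 13.6% of 32851 promoters and in 4 of the 24 member promoters, CCAAT in 37.4% and in 8, TGANTCA in 7.81% and in 3, GGAATG in 14.7% and in 3, and AGGTCA in 16.3% and in 4. A match describes the letters only.

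Penk (proenkephalin, the precursor of enkephalin peptides) was the only listed gene whose 3 cD2KO values all exceeded the WT values. It was at 8.96, 9.21 and 4.15 CPM in c124, c129 and c130 and at 10.9, 10.6 and 11.6 CPM in fl125, fl126 and fl128. The cD2KO mice were close together and c130 was low among the WT mice. The log2 fold change of 0.56 ± 0.45 had an adjusted p of 0.688 (edgeR), and the gene overlaps A830012C17Rik on the opposite strand. Apod (apolipoprotein D, a lipid-binding lipocalin of fibroblasts and peripheral nerve) was at 1330.4, 2187 and 1563 CPM in the WT mice and at 808, 1174 and 1969 CPM in the cD2KO mice. The groups overlapped, as fl128 exceeded c124 and c130, and the log2 fold change was -0.37 ± 0.31 (adjusted p = 0.708 in edgeR's test), and -0.07 without fl125. Cfd (complement factor D, or adipsin, a protease that adipocytes secrete) was at 201 CPM in c124 and 23.6 CPM in fl126, the ends of its range, with a log2 fold change of -1.03 ± 0.70, or -1.55 without fl125.

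Gfpt2, an enzyme of the first step of hexosamine synthesis, was at 14.6, 12.5 and 5.89 CPM in the WT mice and at 9.52, 6.50 and 6.29 CPM in the cD2KO mice. The WT mouse c130 lay below all cD2KO mice, and the log2 fold change was -0.58 ± 0.47 (adjusted p = 0.690 in edgeR's test).

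Over the whole list, 6 tested genes had all cD2KO mice below all WT mice (Lum, Fbln2, Smoc2, Tnfaip6, C3 and Gsn), as did 10% of all genes tested. Only Penk had them all above, as did 8.10% of all genes. The plot of CPM by mouse shows these 7 genes and Mfap5.

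**Figure D2:**
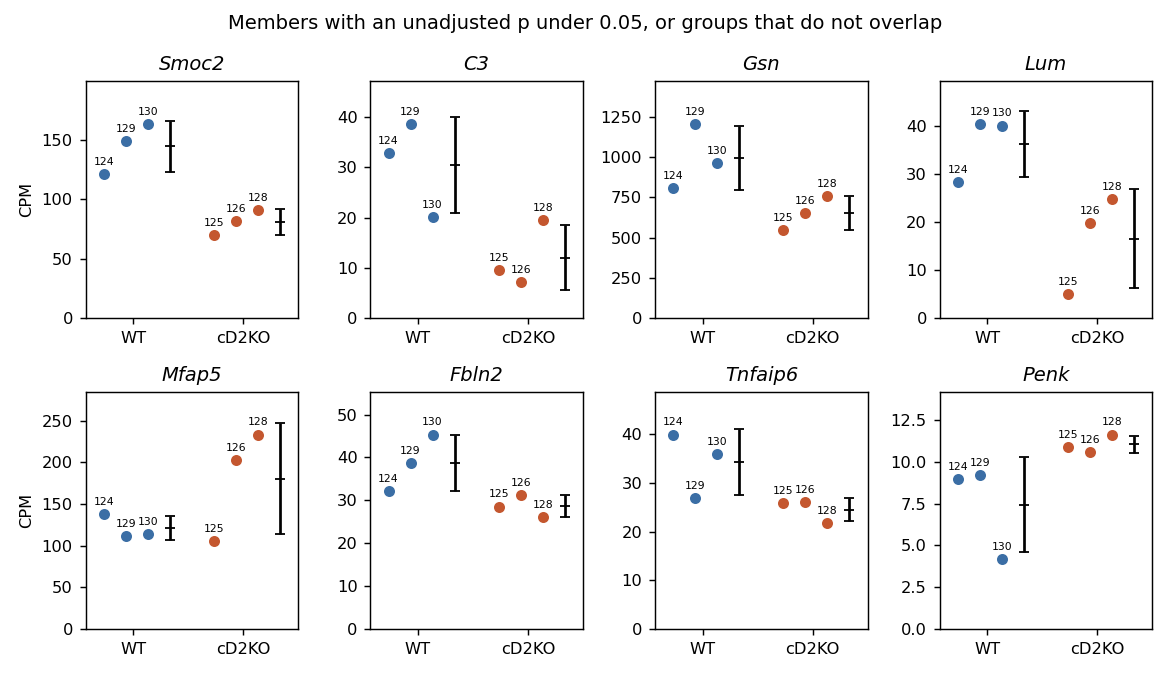
CPM (y axis, from 0) in each mouse for the 5 genes with an unadjusted p under 0.05 (Smoc2, C3, Gsn, Lum and Mfap5) and 3 further genes whose groups do not overlap, with points numbered by mouse and bars for mean ± SD. Smoc2 separates the groups widely, C3 leaves a narrow gap between 20.1 and 19.5 CPM, and Mfap5 has 1 cD2KO mouse, fl125, below the WT mice.

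The listed genes spanned a wide range of levels over the 6 mice. The highest of the 6 values was under 2 times the lowest in 8 of the 30 genes, from 2 to 5 times in 12 and at least 5 times in 10, with a median ratio of 2.59 beside 2.09 over all genes. The ratio ran from 1.29 (Htra3) to 11.4 (Mfap4). The library labelled fl125 had the lowest of the 6 values in 16 of the 30 genes, or 53.3%, where it was lowest in 23.1% of all genes. The WT mouse c129 had the highest in 12 of 30, or 40%, where it was highest in 22.5% of all genes. Among the cD2KO mice the genes were not equally low. In fl125, 20 of 30 genes lay below every WT mouse, in fl126 13 and in fl128 7, which is 66.7%, 43.3% and 23.3%, beside 31.6%, 28.6% and 32.0% of all genes. In the map of levels by mouse, the fl125 column is the bluest and the fl128 column is mixed.

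**Figure D3:**
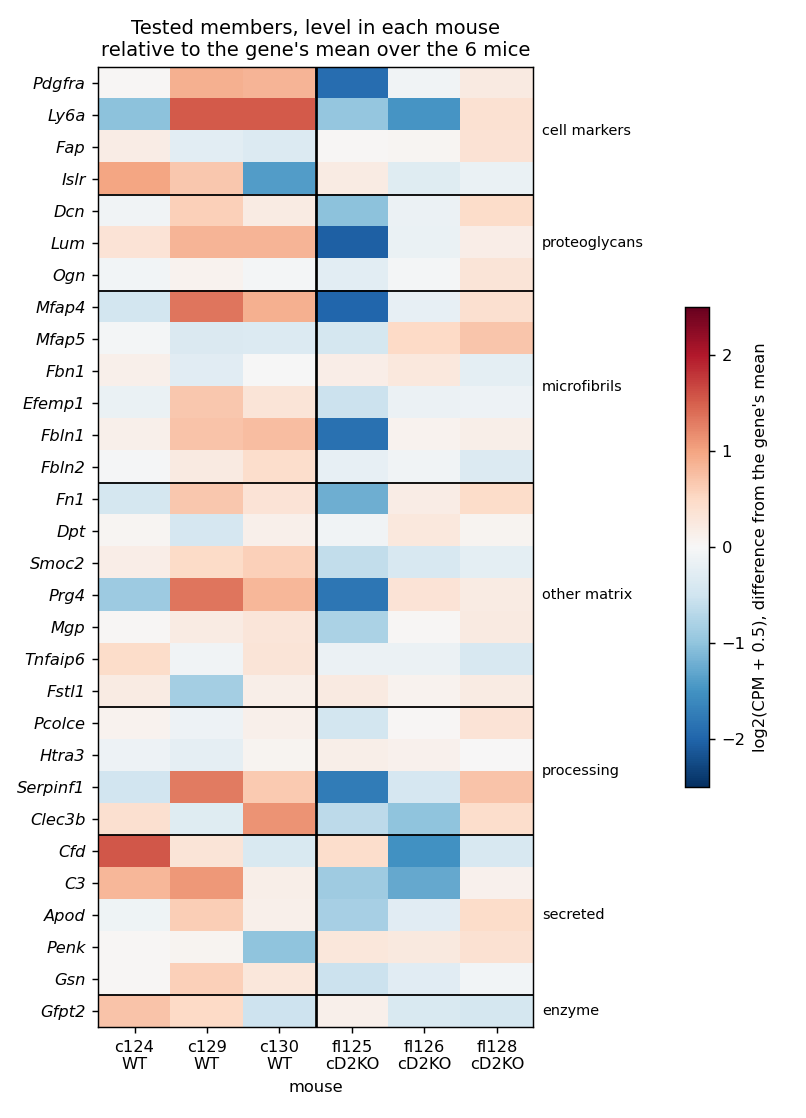
Level of each of the 30 tested genes (rows, grouped by role) in each mouse (columns, WT left and cD2KO right of the thick line), as log2(CPM + 0.5) minus the gene's mean over the 6 mice. Blue is below and red above the mean. The library labelled fl125 is lowest in 16 genes and c129 highest in 12.

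The summed level of the 34 genes was 6179, 8744 and 7212 CPM in c124, c129 and c130 and 3904, 5644 and 7837 CPM in fl125, fl126 and fl128. The groups overlapped, since fl128 exceeded c124 and c130, and the means were 7379 ± 1291 and 5795 ± 1971 CPM (SD, n = 3 mice each). The genes took 0.394% to 0.913% of a library's counts. Dcn, Apod and Gsn made up 60.2% to 74.3% of the sum. Without them the sums were 2129, 2252 and 2319 CPM in the WT mice and 1554, 1980 and 2314 CPM in the cD2KO mice, where fl128 again lay within the WT range. The mean log2 CPM over the tested genes, which weights each gene equally, was 6.08 ± 0.16 in WT and 5.61 ± 0.39 in cD2KO. The groups overlapped here too, with fl128 at 5.99 above c124 at 5.93.

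Without fl125, 32 of the listed genes passed the minimum. The test then called 3 of them lower (Smoc2, C3 and Lum, 9.38%) and 1 higher (Mfap5, 3.13%), where 7.43% and 7.93% of all genes were lower and higher. The median log2 fold change was -0.37, and 21 genes (65.6%) had a negative value, beside 51.1% of all genes. Without c124, 7 were lower, with Ly6a, Mfap4 and Prg4 added, where 7% of all genes were. Without c129, 4 genes were lower (Smoc2, C3, Clec3b and Tnfaip6), where 3.46% of all genes were. Without fl128, 10 were lower, with Apod, Clec3b, Dcn, Fbln1, Ly6a and Mfap4 beside Smoc2, C3, Gsn and Lum, where 5.81% of all genes were. In all 6 fits that left out a mouse, 20 genes had a negative log2 fold change and 7 a positive one, while Ogn, Fn1 and Pcolce had both. In the plot of these fits, the log2 fold change moved up in 25 of the 30 genes without fl125, in 20 without c129 and in 8 without fl128. These fits share most of their mice, and the same counts of signs and moves over all genes are not given here.

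**Figure D4:**
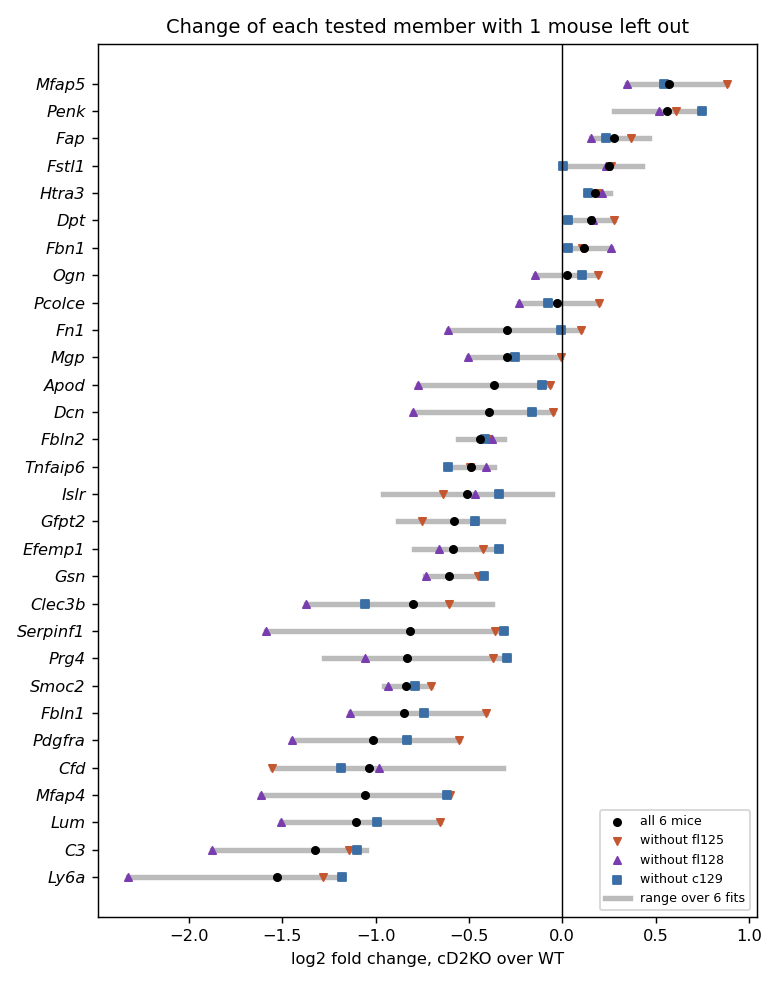
Log2 fold change (x axis, cD2KO over WT) of each tested gene with all 6 mice (black), without fl125, fl128 or c129 (colored markers), and its range over the 6 fits that leave out 1 mouse (grey bar). Smoc2 stays between -0.95 and -0.70, while Dcn moves from -0.80 without fl128 to -0.05 without fl125.

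Other fibroblast genes were read from a separate list of 36, of which 31 were tested. Of these, 5 were lower (16.1%) and 1 was higher (3.23%), beside 6.62% and 5.34% of all genes tested. The log2 fold change was negative in 22 (71.0%), beside 51.9% of all genes, with the median at -0.13. The sums of all 36 overlapped, at 8522 to 10145 CPM in the WT and 8842 to 10920.5 CPM in the cD2KO mice. Cxcl14, a chemokine of fibroblasts, averaged 75.03 ± 30.7 CPM in the WT and 23.4 ± 7.28 in the cD2KO mice, with a log2 fold change of -1.66 (adjusted p = 0.0902 in edgeR's test). Postn (periostin) and Abi3bp, matrix proteins, were also lower (-0.85 and -0.65 as log2 fold changes), with adjusted p of 0.126 and 0.224, and Nid1 and Vcan were lower too. Eln (elastin), which microfibrils such as those of Mfap5 surround, was higher, at 168 ± 57.5 against 86.9 ± 13.4 CPM, with a log2 fold change of 0.95 and an adjusted p of 0.136. Smooth muscle cells make elastin as well. The log2 fold change was below 0 for all 9 fibroblast collagens tested (median -0.25), and 2 were lower, Col1a2 at -0.84 and Col5a2 at -0.60, with adjusted p of 0.214 and 0.202 in edgeR's test. Pdgfrb (a PDGF receptor shared with mural cells) and Gli1 (a transcription factor of the hedgehog pathway) did not pass the test. Nor did Lox (lysyl oxidase, which crosslinks collagen and elastin). The log2 fold changes of Pdgfrb, Gli1 and Lox were -0.06 ± 0.22, -0.01 ± 0.24 and -0.04 ± 0.41 (SE). Among the cD2KO mice, Lox ran from 28.6 CPM in fl125 to 88.0 CPM in fl128. The calls of Abi3bp (-0.45) and Col1a2 (-0.66) were lost without c130.

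Markers of other cells moved between the groups too. All 10 immune markers had negative log2 fold changes (median -1.79), 4 were lower, among them Ptprc (-1.98), Itgam (-2.32) and Cd68 (-1.999), and their summed level ran from 2592 to 5024 CPM in the WT and from 179 to 1711 in the cD2KO mice, lowest in fl125. Of 9 endothelial markers tested, 6 were lower, with Flt1 at -1.71, Kdr at -1.66 and Cldn5 at -3.46, and sums of 254 to 357 CPM in the WT and 203 to 249.6 in the cD2KO mice. The 2 with positive values were Esam (0.32) and Tek (0.04). Esam, the most abundant gene in these sums, averaged 116 CPM in the WT and 146 in the cD2KO mice, and all cD2KO mice lay above all WT mice. Of 10 mural markers, 5 were higher, among them Cnn1 (1.44), Tagln (0.95) and Myh11 (0.996), with sums of 5843 to 9922 and 11805 to 17608 CPM. Acta2 and Myh11 were the most abundant genes in these sums. Rgs5 had a log2 fold change of 0.003 ± 0.40 (SE) and overlapped between the groups. It was at 2148, 1150 and 1069 CPM in c124, c129 and c130 and at 2318, 1223.5 and 841 CPM in fl125, fl126 and fl128. The 2 mural markers with negative values were Kcnj8 (-0.36) and Abcc9 (-0.23), and fl125 was the highest cD2KO mouse in both. Of 12 MuSC markers, 5 were higher, with Des at 0.95, Msx1 at 0.82 and Itga7 at 0.71, and sums of 1766 to 2348 and 2619 to 3410 CPM. The 3 with negative values were Sdc4 (-0.46), Spry1 (-0.45) and Vcam1 (-0.09). Pax7 overlapped between the groups, with a log2 fold change of 0.47 ± 0.32 (SE, adjusted p = 0.623 in edgeR's test). Its levels were 408, 211 and 431 CPM in c124, c129 and c130 and 688, 452 and 314 CPM in fl125, fl126 and fl128. The highest value was that of fl125. Ptprc lost its call without fl128 (-1.86) and Cd68 without c129 (-1.63), c130 (-2.02), fl126 (-2.23) or fl128 (-2.37). The smallest adjusted p was 0.221 among the immune markers, 0.0885 among the endothelial and the mural markers and 0.130 among the MuSC markers in edgeR's test.

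The tenocyte markers, whose cells also make Dcn, Lum and Fn1, had no gene past the threshold, but all 7 tested had negative values (median -0.66). Their sums were 419, 1244 and 1063 CPM in c124, c129 and c130 and 232, 637 and 1022 CPM in fl125, fl126 and fl128, with c129 highest and fl125 lowest, as for the listed genes. Of 6 Schwann cell markers, 1 was lower, Cdh19 at -0.99 with an adjusted p of 0.167 (edgeR), and the sums overlapped at 4321 to 6759 and 6199 to 6969.9 CPM. Of 4 adipocyte markers tested, Fabp4, which endothelial cells share, was lower at -0.96 with an adjusted p of 0.123 (edgeR). The sums were 273 to 294 and 106 to 214 CPM, and most of each was Fabp4. Adipoq (-1.23), Plin1 (-1.22) and Cidec (0.03) overlapped between the groups. No myofiber marker of 8 passed (median 0.54), with sums of 1920 to 4376 and 3636 to 6686 CPM. No marker of these lists was at 0 in all mice. The part of these cells in the values of the listed genes was not tested. The plot of summed levels sets the lists side by side.

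**Figure D5:**
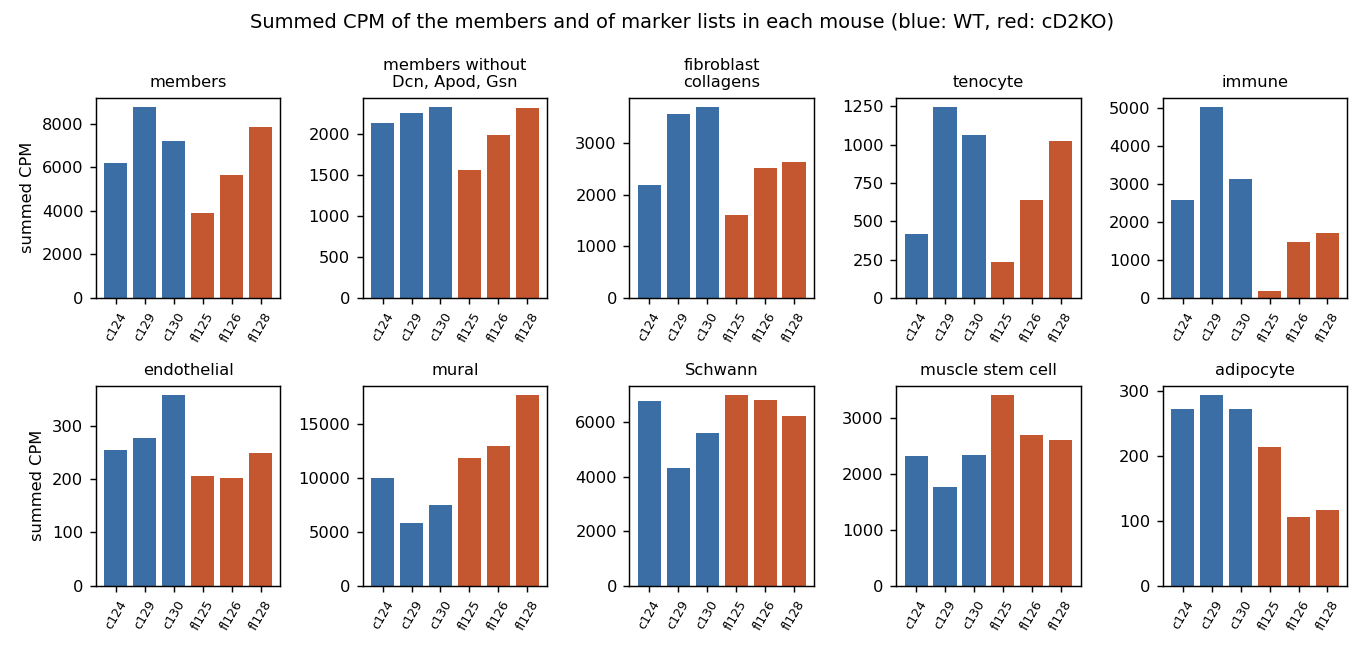
Summed CPM (y axis, from 0, a separate scale in each panel) of the 34 listed genes, of the list without Dcn, Apod and Gsn, and of 8 marker lists, in each mouse (WT blue, cD2KO red). The listed genes and the tenocyte markers are lowest in fl125 and overlap between groups, the immune sums are lower in every cD2KO mouse than in any WT mouse, and the mural and MuSC sums higher.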

How the data were processed

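Sorted MuSCs of 3 WT and 3 cD2KO mice were measured by RNA-seq. The deposited counts are the authors' numbers of reads on each gene of mm10, whole and not normalized, and the submitters' processing notes name bcl2fastq, STAR 2.6.0a and HTSeq 0.9.1. Which annotation was counted, whether strand was used, which part of a transcript was read and how duplicates were treated are not given in the sources used here, so genes with overlapping exons, 11 of the 34, are uncertain. The floors of 3 counts cover counting error only. GENCODE M21 (mm10) gave symbols and coordinates, with 30934 of 31053 identifiers matched.

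Of the 18040 genes with a count, 11633 passed the study's expression minimum (mean DESeq2-normalized count above 10) and were tested. Counts were scaled with TMM and compared in edgeR 4.0.16 (R 4.3.3) by its quasi-likelihood test, robust and without covariates, and p were adjusted by Benjamini-Hochberg over these genes. Genes were called at an unadjusted p under 0.05, and adjusted p stand beside the calls. The fit was first tested on simulated data. Sums and medians over a list were given with no test. Groups came from the genotype labels, and replicate numbers only follow accession order.

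The members and the lists were chosen with earlier results of these data known. Of the members, values in every mouse are printed for genes past the threshold, for genes whose groups do not overlap and for the gene of each role with the highest mean CPM. Of the other lists, up to 3 called genes in each direction with the smallest p are named, by their fold change or mean. A result for 1 listed Schwann cell marker is not reported here. Nid1, Vcan, Pdgfrb, Gli1 and Lox were added after their values were seen. So were Rgs5, Kcnj8, Abcc9, Acta2, Sdc4, Spry1, Vcam1, Esam, Tek, Adipoq, Plin1, Cidec and the fold change and CPM of Pax7. Alternatives tried were DESeq2 1.42.0 and voom of limma 3.58.1 as tests, scaling by DESeq2 size factors or upper quartiles, filterByExpr, a mean of at least 50 or no filter, estimation that is not robust, each mouse left out, and calls at an adjusted p of 0.05 or 0.1.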

Additional observations from a re-analysis of the deposited data

How the results depend on the processing

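The median log2 fold change of the listed genes was negative under every alternative run, from -0.64 to -0.32 with 1 mouse left out. The 4 genes lower in cD2KO became 7 with no minimum and 0 at an adjusted p under 0.05 or 0.1, and ran from 3 to 10 with 1 mouse left out. The 1 higher gene, Mfap5, became 0 with limma voom, a minimum mean of 50, non-robust estimation and either adjusted p, and ran from 0 to 1 with 1 mouse left out. With no minimum, Lum, Smoc2 and C3 had an adjusted p under 0.05, as did 510 of all 18040 genes then tested. Over all genes, the 621 higher of 11633 tested became 939 of 18040 tested with no minimum. At an adjusted p under 0.05 and 0.1 they became 1 and 33, with 402 to 933 when 1 mouse was left out. The 770 lower of 11633 became 505 of 7353 tested at a minimum mean of 50, and 0 and 57 at these adjusted p, with 399 to 874. Signs reversed for Ogn at a minimum mean of 50 (-0.0080) and with 1 mouse left out (-0.15 to 0.19), for Pcolce with no minimum (0.0084) and with 1 mouse left out (-0.23 to 0.20), and for Fn1 with 1 mouse left out (-0.61 to 0.10). The filters themselves changed how many genes were tested. The cause of the shifts was not tested. No paired analysis was possible because the labels give the mice no shared replicate numbers. Low counts limit what can be said of Dpp4, Pi16, Osr1 and Twist2, which had at most 6.92 CPM in any mouse.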
